A study of Mus musculus with 6 samples.

Results

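The genes described here encode the collagens and the interstitial matrix proteins, the scaffold that lies between and beneath cells. They were chosen by name: every mouse collagen chain on the array whose RefSeq transcript carries a symbol of the form Col, number, a, number, which gave 44 chains, and 28 listed matrix proteins such as *Fn1*, *Fbn1*, *Dcn* and *Hspg2*. Together they were 72 of the 45616 genes and transcripts tested. They were measured in islet cells of newborn mice, sorted by whether the cells had expressed *Wnt4*, and 61 of the 72 had a lower fitted level in the cells that had, as did 36.4% of all features. By single gene the largest differences were those of type XIII and type XV collagen, each by a probe that was dim on some arrays and with a smaller difference by a second probe. Among classes, the basement membrane and the matricellular proteins had the lowest medians. Most fibril-associated collagens, and most of those grouped with type VI, did not pass a test.

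Collagen chains wind into a triple helix. Fibrillar collagens form the cables of loose connective tissue. Type IV collagen, together with nidogens, perlecan and agrin, builds the sheet on which endothelial and epithelial cells rest, and collagens XV and XVIII lie at the border between that sheet and the tissue around it. Other collagens decorate fibrils (the fibril-associated, or FACIT, collagens), span the cell membrane, or form fine beaded filaments as type VI does. Elastin, fibrillins and fibulins make elastic fibres, lysyl oxidases cross-link them, and matricellular proteins such as SPARC, tenascin and thrombospondins tune how cells attach. In pancreatic islets, matrix is known to be made mainly by vessel and stromal cells, and mouse β-cells are known to rely on endothelial cells for their basement membrane.

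All pups carried *Wnt4eGFPCre*, a knock-in that puts eGFP and Cre under control of the *Wnt4* locus, and the *mTmG* reporter, in which Cre action switches a cell and its descendants from membrane tomato to membrane GFP. Islets were taken at postnatal day 1 and sorted into mGFP+ cells (Wnt4hi, cells with a history of *Wnt4* expression) and mGFP− cells (Wnt4low). The pups were crossed to C57BL/6J and received no treatment. Each sample was a pool of islets from 3 or 4 pups, and each was amplified and hybridised to 1 array in 1 color (Cy5): Wnt4hi replicates 2, 3 and 4, and Wnt4low replicates 1, 3 and 4. The sort separated cells by reporter and not by cell type, so any islet-associated cell without a *Wnt4* history fell into Wnt4low. The labels do not say whether samples that share a number came from the same pups.

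The 6 arrays lay on 1 slide. Between 70.5% and 79.5% of 59305 spots were well above background, a software call that the spot is brighter than its surroundings, and 0 spots were saturated. *Wnt4* itself was at 11.20, 10.53 and 10.77 on Wnt4hi replicates 2, 3 and 4 and at 9.85, 10.10 and 9.31 on Wnt4low replicates 1, 3 and 4, in log2 intensity after normalization, so the labels and the gene ran the same way. Wnt4hi replicate 2 was compared with the other arrays. With each probe centred on its mean over the 6 arrays, which alone pulls such values below 0, its deviations correlated across probes with those of Wnt4hi replicates 3 and 4 at r = −0.01 and −0.12, whereas those of replicates 3 and 4 correlated at 0.21. The Wnt4low arrays correlated with each other at 0.02, 0.08 and 0.09, so a weak correlation within a group was not particular to replicate 2. Replicate 2 stood apart in that its deviations followed its own column of the authors' normalized table at r = 0.27, against 0.84 to 0.87 for the other arrays. Results that rest on this array are therefore given with and without it.

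All values below are log2 intensities, background-corrected and quantile-normalized, and arrays are named in the order Wnt4hi 2, 3, 4 and Wnt4low 1, 3, 4. Fold changes are Wnt4hi minus Wnt4low on the log2 scale, ± the standard error of limma's fit, with 3 arrays per population. Where a gene had several probes, the brightest stood for it. Genes are called at an unadjusted limma p below 0.05, and separately after Benjamini-Hochberg adjustment over all 45616 features at the same limit. To pass means to be called without adjustment, and printed p-values are adjusted. With 3 arrays against 3, an exact permutation test cannot give a two-sided p below 0.1. In samples of many cells, fewer cells of a type and less RNA per cell cannot be told apart.

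At the unadjusted threshold, 34 of the 72 genes were lower in Wnt4hi, where 5.53% of all features were, and 2 were higher, where 5.06% of all features were. After adjustment 1 gene was lower, against 0.406% of all features, and 0 were higher, against 0.0351%. The median fold change over the 72 genes was −0.95, beside 0.07 over all features. In 31 genes all 3 Wnt4hi arrays lay below all 3 Wnt4low arrays, as in 6.44% of all features, and in 4 they lay above, as in 9.63%. The count of lower genes moved with the arrays used: 45 without Wnt4hi replicate 2, where 5.24% of all features were called, and 21 without Wnt4hi replicate 4, where 5.27% were. Without replicate 2, 3 genes were higher, against 5.11% of all features, and 0 passed after adjustment, against 0.00219% that were lower. In 59 genes every array was well above background. *Col10a1*, a cartilage collagen, was not well above background on any. No filter on low values was applied to these counts.

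**Figure D1:**
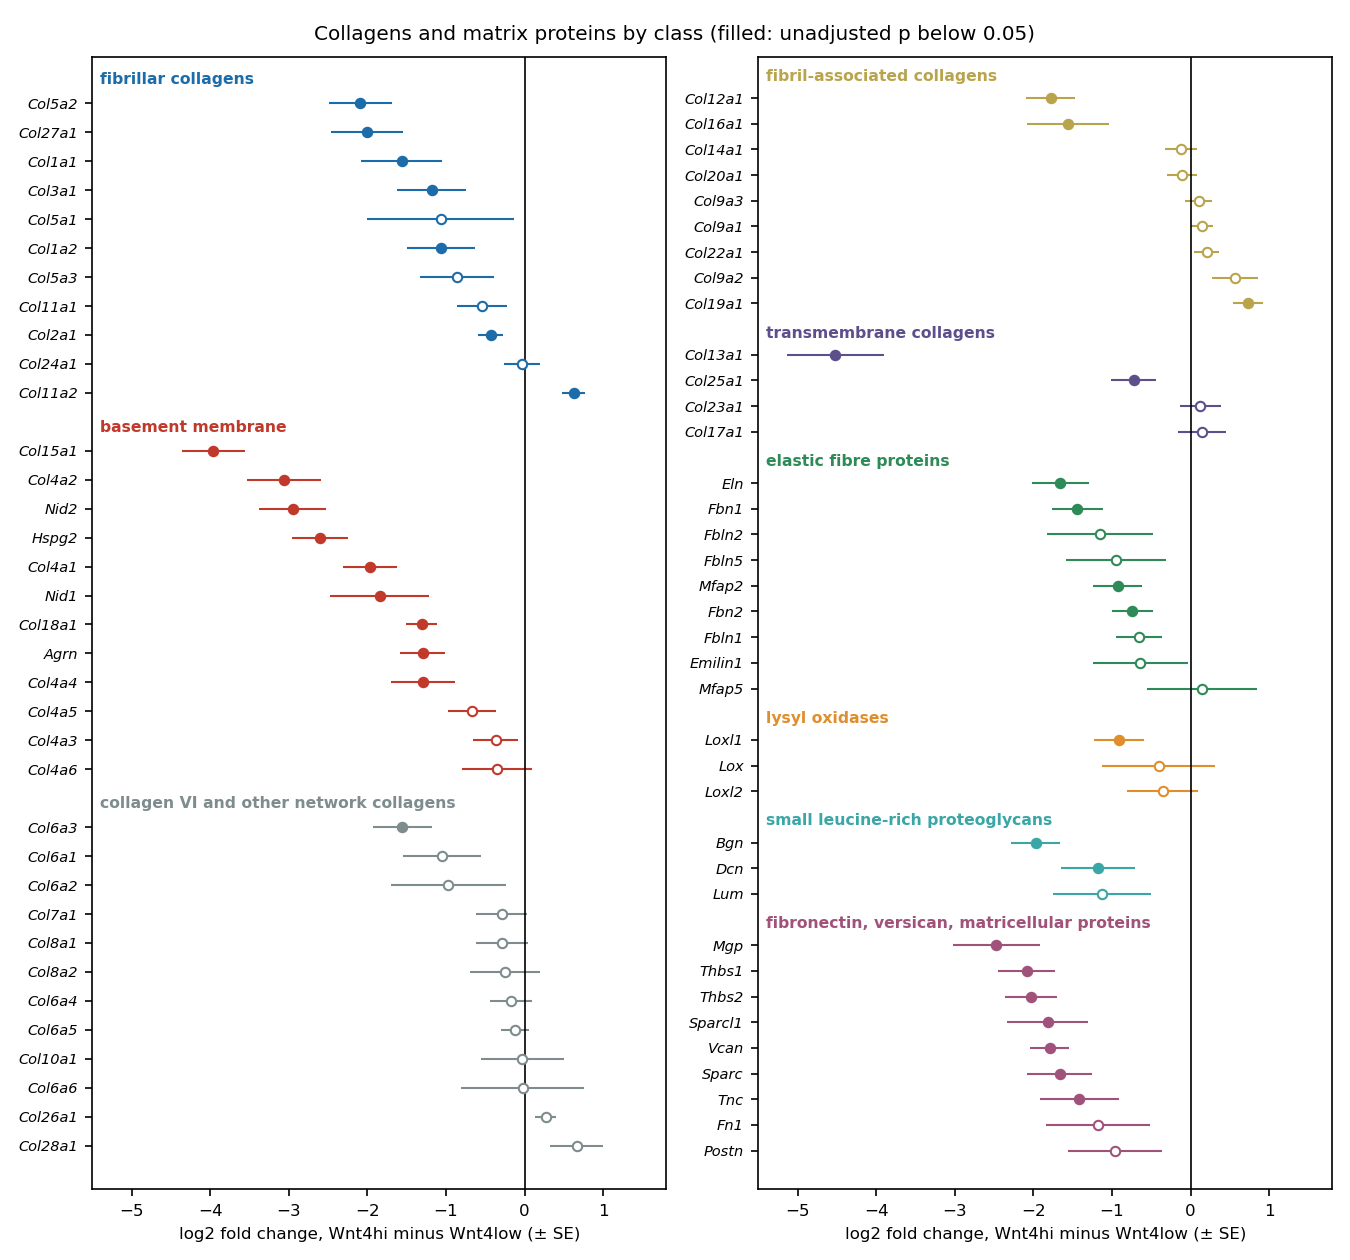
Log2 fold change (Wnt4hi minus Wnt4low) with the standard error of limma's fit for each of the 72 genes, by class, 3 arrays per population. Filled points passed the unadjusted threshold. All 12 basement membrane genes lie left of 0, while the fibril-associated collagens lie on both sides of it.

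Basement membrane genes had the lowest median fold change of the classes that hold collagen chains. All 12 genes had negative fold changes, with a median of −1.58, and 9 passed the unadjusted threshold. *Col15a1*, which encodes a collagen that bridges basement membranes to nearby fibrils, was at 8.34, 7.51 and 7.34 in Wnt4hi and at 12.03, 10.97 and 12.07 in Wnt4low. The populations were separated by more than 2 log2 units, and on the Wnt4hi side the probe was well above background on 2 arrays only. It differed by −3.96 ± 0.40 (limma adjusted p = 0.033), the only adjusted call among the 72 genes. A second probe of *Col15a1*, well above background on all 6 arrays, differed by −0.41. The adjusted p ranged from 0.012 to 0.29 over the alternative settings and missed the threshold whenever 1 array was left out, with values of 0.054 to 0.14.

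*Col4a1* and *Col4a2* encode the chains of the commonest type IV collagen, found in nearly every basement membrane. *Col4a1* was at 12.97, 11.89 and 12.20 in Wnt4hi and at 14.79, 14.23 and 13.94 in Wnt4low. *Col4a2* was at 11.63, 10.36 and 11.02 in Wnt4hi and at 14.92, 13.65 and 13.61 in Wnt4low. Neither gene's populations overlapped, and Wnt4low replicate 1 was the highest array for both. The fold changes were −1.97 ± 0.35 for *Col4a1* and −3.06 ± 0.47 for *Col4a2* (limma adjusted p = 0.096 and 0.070). The 2 genes stand head to head on chromosome 8, with listed start sites 21 bases apart in GRCm38.p6, and their arrays stood in the same order. The rarer chains of type IV collagen, known from kidney, lung and other specialised sheets, gave less. *Col4a4* was well above background on 0 Wnt4hi and 2 Wnt4low arrays. Its mean was lower in Wnt4hi by a bound of 1.81-fold by this probe, and the bound carries no error. *Col4a5*, well above background on the same numbers of arrays, had a bound of 1.31-fold. Its arrays overlapped, with Wnt4hi replicate 2 at 7.37 above Wnt4low replicate 3 at 7.20, and it missed the unadjusted threshold. *Col4a3* (−0.37) and *Col4a6* (−0.35) also missed it.

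The proteins that tie the sheet together moved the same way. *Hspg2*, which encodes the large proteoglycan perlecan, was at 11.77, 11.26 and 11.35 in Wnt4hi and at 14.84, 13.70 and 13.64 in Wnt4low. Its Wnt4hi arrays lay close together and well under every Wnt4low array, and its second probe differed by −2.78. *Hspg2* differed by −2.61 ± 0.36 (limma adjusted p = 0.0575). *Nid2*, 1 of the nidogens that link type IV collagen to laminin, had a fold change of −2.95 ± 0.42 (limma adjusted p = 0.064). *Nid1*, the other nidogen, was at 12.41, 10.15 and 10.54 in Wnt4hi and at 12.35, 13.44 and 12.84 in Wnt4low, so that Wnt4hi replicate 2 lay just above Wnt4low replicate 1. Its fold change of −1.85 ± 0.63 (limma adjusted p = 0.36) became −2.53 without that array. By its second probe, which differed by −1.96, replicate 2 was at 11.81, below every Wnt4low array.

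*Col18a1*, the collagen whose C-terminal fragment is endostatin, was at 10.24, 10.22 and 9.87 in Wnt4hi and at 11.74, 11.29 and 11.24 in Wnt4low. The Wnt4hi arrays spanned a narrow range under all of the others. The fold change was −1.31 ± 0.20 (limma adjusted p = 0.070), or 2.48-fold. *Agrn*, which encodes agrin, a proteoglycan of neuromuscular and vascular basement membranes, was at 10.86, 10.12 and 10.03 in Wnt4hi and at 11.52, 12.01 and 11.38 in Wnt4low. These groups did not overlap either, and both probes of *Agrn* gave −1.30 (limma adjusted p = 0.16 for the brighter).

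Fibrillar collagens were lower by less, and most of them were high on Wnt4hi replicate 2. Of 11 genes, 10 had negative fold changes, with a median of −1.06, and 6 were lower and 1 higher at the unadjusted threshold. *Col1a1* and *Col1a2* encode the chains of type I collagen, the main collagen of connective tissue. *Col1a1* was at 11.81, 10.14 and 9.85 in Wnt4hi and at 12.27, 11.91 and 12.32 in Wnt4low. *Col1a2* was at 13.99, 12.42 and 12.44 in Wnt4hi and at 14.01, 13.95 and 14.08 in Wnt4low. For both chains Wnt4hi replicates 3 and 4 sat well under the Wnt4low arrays, while replicate 2 sat just below them for *Col1a1* and among them for *Col1a2*. The fold changes were −1.57 ± 0.52 and −1.06 ± 0.44, the latter only just past the unadjusted threshold (limma adjusted p = 0.34 and 0.47). Without replicate 2 they were −2.17 and −1.58 (limma adjusted p = 0.054 for each), and without replicate 4 they were −1.19 and −0.80 (limma adjusted p = 0.53 and 0.63).

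*Col3a1*, the partner of type I collagen in soft tissue and vessel walls, was at 14.07, 12.37 and 13.51 in Wnt4hi and at 14.21, 14.50 and 14.79 in Wnt4low. The groups did not overlap, by a margin of less than the spread within either group. It differed by −1.18 ± 0.44 (limma adjusted p = 0.42), by −1.56 without replicate 2, and by −0.71 without Wnt4hi replicate 3. *Col5a2*, a chain of the type V collagen that starts and limits fibrils, was at 7.63, 6.74 and 6.81 in Wnt4hi, where 1 array was well above background, and at 8.57, 9.001 and 9.88 in Wnt4low. It had the largest fold change of the class in the main fit, −2.09 ± 0.40 (limma adjusted p = 0.12), and ranged from −2.84 to −0.82 over the alternative settings. *Col27a1*, a fibrillar collagen of growing cartilage, followed with −2.01 ± 0.46. It ranged from −2.43 to −1.56, so this order did not hold in every setting. *Col2a1*, the main collagen of cartilage, passed with −0.43 ± 0.16. *Col5a3* (−0.86), *Col11a1* (−0.54) and *Col24a1* (−0.04) did not pass over 6 arrays. Without replicate 2, *Col5a3* (−1.38, limma adjusted p = 0.13) and *Col11a1* (−0.78, limma adjusted p = 0.47) passed. The second probe of *Col5a3* differed by 0.06 over 6 arrays.

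*Col5a1*, the other main chain of type V collagen, had the widest gap between replicate 2 and the other Wnt4hi arrays. The cause of this gap was not tested. *Col5a1* is among the genes whose arrays are given because their values were seen. It was at 12.56, 9.14 and 9.11 in Wnt4hi and at 11.22, 11.60 and 11.19 in Wnt4low. Replicate 2 was the highest of all 6 arrays and the other Wnt4hi arrays the lowest. Over all arrays the difference was −1.07 ± 0.94 and did not pass, and without replicate 2 it was −2.21 (limma adjusted p = 0.054).

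*Col11a2*, which encodes a chain of the type XI collagen of cartilage fibrils, was 1 of the 2 genes higher in Wnt4hi. It was at 10.98, 10.69 and 10.82 in Wnt4hi and at 10.09, 10.38 and 10.14 in Wnt4low, with no overlap. The fold change was 0.62 ± 0.15 (limma adjusted p = 0.19), and its second probe differed by 0.14.

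**Figure D2:**
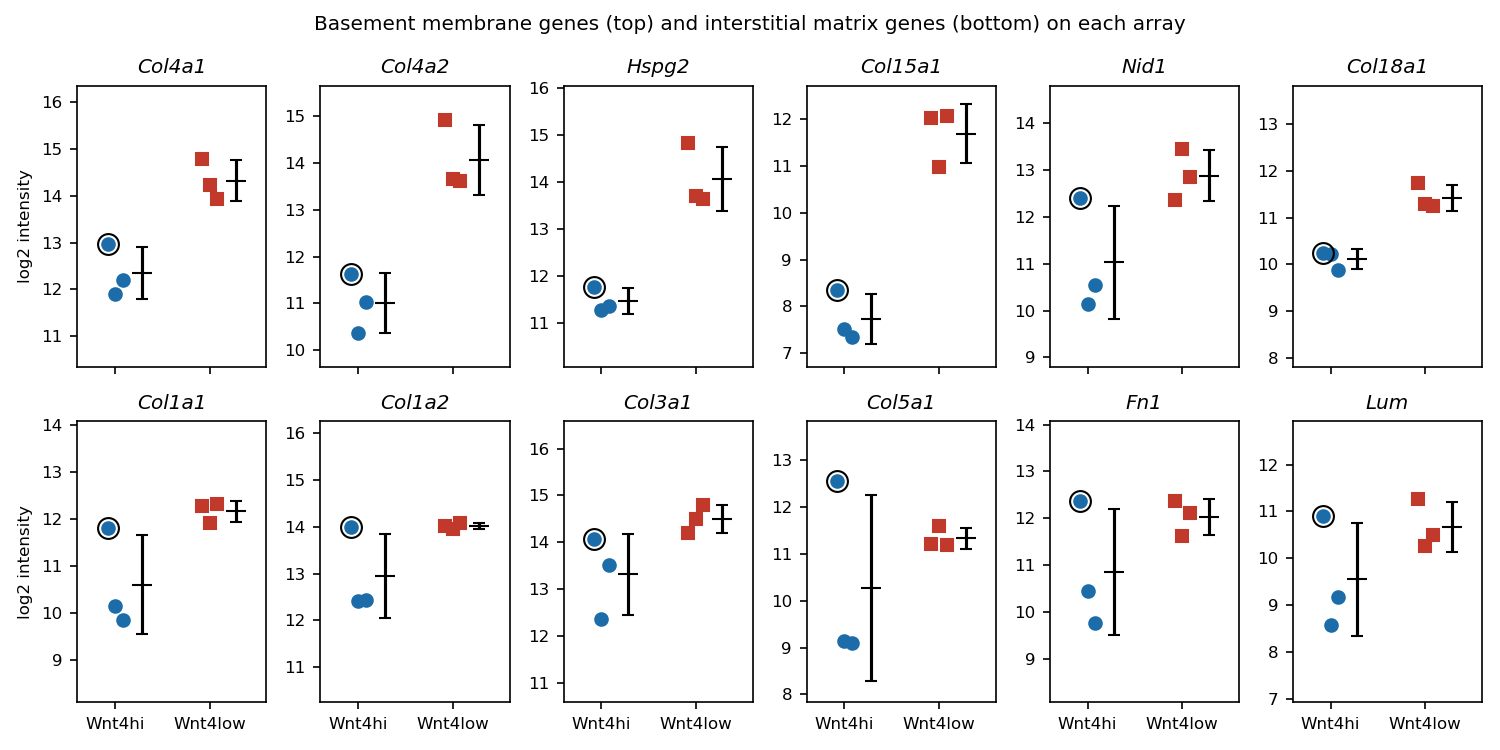
Log2 intensity of 6 basement membrane genes (top) and 6 interstitial matrix genes (bottom) on each array; circles are Wnt4hi, squares Wnt4low, the ringed circle is Wnt4hi replicate 2, and bars give mean ± SD (n = 3). Every vertical axis spans 6 log2 units, and levels of different genes cannot be compared. Replicate 2 lies below every Wnt4low array for *Col4a1*, *Col4a2*, *Hspg2*, *Col15a1*, *Col18a1*, *Col1a1* and *Col3a1*. It lies among or above the Wnt4low arrays for *Nid1*, *Col1a2*, *Col5a1*, *Fn1* and *Lum*.

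Wnt4hi replicate 2 was set against the Wnt4low range gene by gene. It lay below every Wnt4low array in 35 of the 72 genes, against 51 for replicate 3 and 58 for replicate 4. Over all features these shares were 20.1%, 17.8% and 22.7%. The next count was made for the 72 genes only, so no share over all features stands beside it. In 18 genes replicate 2 alone among the Wnt4hi arrays reached the Wnt4low range: 4 fibrillar collagens, 4 elastic fibre proteins, *Col6a1* and *Col6a2*, *Lox* and *Loxl2*, *Dcn* and *Lum*, *Fn1* and *Postn*, and 2 of the 12 basement membrane genes, *Nid1* and *Col4a5*. Without the array, the median fold change of the fibrillar collagens was −1.56 in place of −1.06, and that of the basement membrane was −1.92 in place of −1.58. Without Wnt4hi replicate 3 they were −0.62 and −1.39. The count past the unadjusted threshold went from 6 to 9 fibrillar collagens and stayed at 9 basement membrane genes. Of the 18 genes, 9 had another probe, and in 6 of those 9 another probe put replicate 2 below every Wnt4low array. The other probe of *Lox*, for example, was at 6.98 on replicate 2 and at 7.72 to 8.55 in Wnt4low. That probe was well above background on 0 Wnt4hi arrays. The other probe of *Col4a5*, also among the 6, was so on 0 Wnt4hi arrays and 1 Wnt4low array.

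Leaving out any other array was also tried. Of the 34 genes lower at the unadjusted threshold, 21 passed in all 6 fits that left out 1 array, and both higher genes did. The same was not counted over all features, so these numbers have no share to be read against. The 21 held 7 of 9 basement membrane genes, 6 of 7 matricellular genes and 2 of 6 fibrillar collagens. The 13 that missed the threshold in some fit were *Col1a1*, *Col1a2*, *Col2a1*, *Col3a1*, *Col4a4*, *Nid1*, *Col16a1*, *Col25a1*, *Fbn2*, *Mfap2*, *Loxl1*, *Dcn* and *Tnc*. Where leaving out replicate 2 gave a larger difference, leaving out Wnt4hi replicate 3 or 4 could give a smaller one. Without replicate 3, *Postn* was at −0.32, *Fbln5* at −0.25, *Lum* at −0.64, *Col5a1* at −0.50, *Col5a3* at −0.46, *Col6a1* at −0.66 and *Col6a2* at −0.51, and without replicate 4 *Fn1* was at −0.62 and *Fbln2* at −0.65. None of these 9 values passed.

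**Figure D3:**
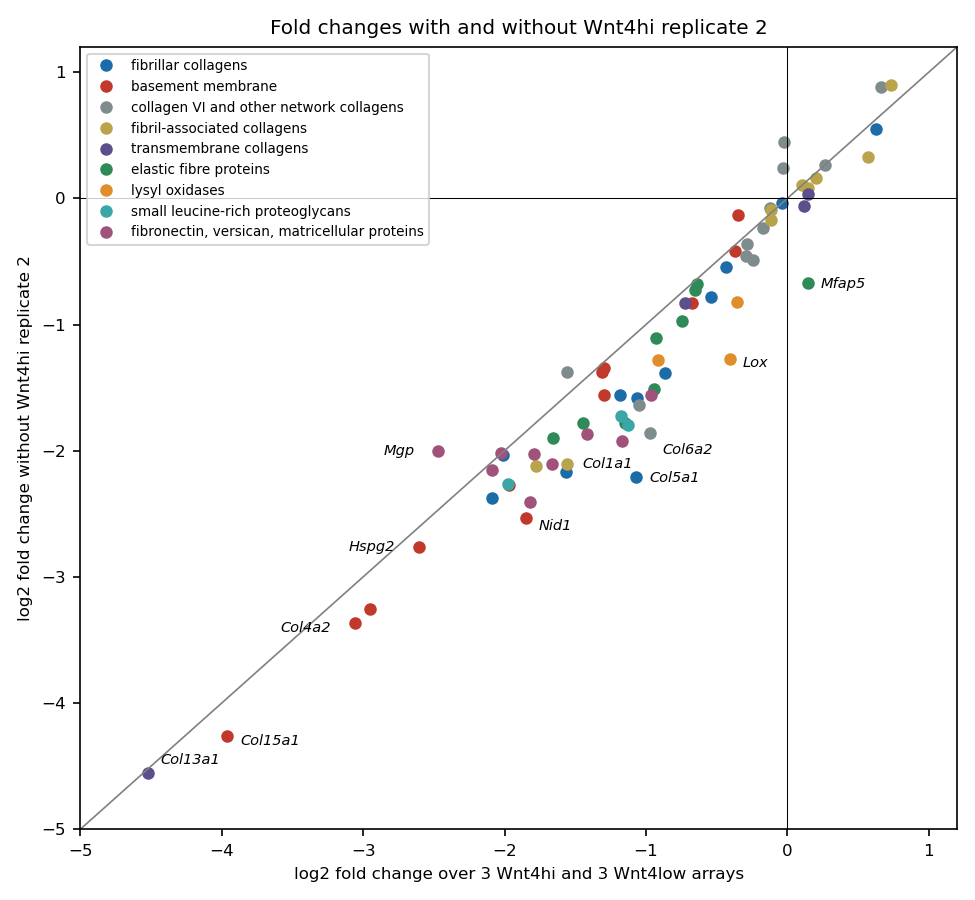
Log2 fold change of each gene without Wnt4hi replicate 2 (vertical) against that over all 6 arrays (horizontal); the diagonal marks equal values and colours give the class. Points below the diagonal have a lower fold change when the array is left out, such as *Col5a1* (from −1.07 to −2.21), *Lox* and *Mfap5*, while *Col15a1*, *Hspg2* and *Col13a1* stay near the line.

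The stretches before the start sites of 4 of these genes are shown because the genes differed in how Wnt4hi replicate 2 stood to the other Wnt4hi arrays: *Col18a1* was nearly level on replicates 2 and 3, whereas *Nid1*, *Col1a2* and *Col3a1* were clearly highest on replicate 2. RefSeq's table for GRCm38.p6 held windows for 50 of the 72 genes. The 250 bases directly upstream of the outermost listed start are given 5′ to 3′ on the gene's strand, for *Col18a1* at chr10:77166531-77166780 (minus strand), *Nid1* at chr13:13437352-13437601, *Col1a2* at chr6:4505368-4505617 and *Col3a1* at chr1:45311288-45311537 (plus strand). Capitals mark the CCAAT motif, the GC box, whose letters are GGGCGG, and the TATA box, searched as TATAAA, each on both strands and none overlapping another.
Col18a1: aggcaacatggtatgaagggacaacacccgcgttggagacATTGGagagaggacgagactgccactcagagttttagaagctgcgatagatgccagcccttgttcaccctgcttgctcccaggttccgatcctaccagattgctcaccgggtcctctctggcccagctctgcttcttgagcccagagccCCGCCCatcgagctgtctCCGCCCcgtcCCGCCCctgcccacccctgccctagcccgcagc
Nid1: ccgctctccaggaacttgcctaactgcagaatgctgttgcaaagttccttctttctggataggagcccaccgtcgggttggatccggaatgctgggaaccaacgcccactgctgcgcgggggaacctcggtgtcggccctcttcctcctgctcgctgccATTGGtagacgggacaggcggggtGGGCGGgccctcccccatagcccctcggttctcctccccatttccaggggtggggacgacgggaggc
Col1a2: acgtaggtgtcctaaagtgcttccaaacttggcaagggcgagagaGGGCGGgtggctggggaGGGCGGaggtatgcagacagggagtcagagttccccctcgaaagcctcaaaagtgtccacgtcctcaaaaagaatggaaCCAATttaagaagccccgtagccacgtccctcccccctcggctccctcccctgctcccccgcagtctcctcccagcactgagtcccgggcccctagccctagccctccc
Col3a1: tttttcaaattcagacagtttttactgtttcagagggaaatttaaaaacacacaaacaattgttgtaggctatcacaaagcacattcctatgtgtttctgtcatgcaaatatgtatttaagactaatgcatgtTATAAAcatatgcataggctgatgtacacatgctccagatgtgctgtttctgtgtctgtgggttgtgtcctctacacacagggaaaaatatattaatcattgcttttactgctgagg
The first 3 hold 1 CCAAT letter match each and between 1 and 3 GC boxes, and no TATAAA. *Col3a1* holds a TATAAA that begins 117 bases before the start, and neither of the other motifs. Over the 59 windows of the 72 genes, 59.3% held a GC box, 30.5% a CCAAT and 15.3% a TATAAA, beside 32.7%, 33.8% and 12.4% of all 32851 windows in the table. These matches describe the letters of the windows and were not related to any factor.

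Collagen VI and the other microfibril and network collagens were split within the class. The median over 12 genes was −0.21, or −0.35 without Wnt4low replicate 3 and −0.022 without Wnt4low replicate 1, and 1 gene passed the unadjusted threshold. That gene, *Col6a3*, encodes the longest chain of type VI collagen, which anchors cells to fibrils. It was at 9.42, 9.77 and 10.16 in Wnt4hi and at 11.65, 11.79 and 10.58 in Wnt4low. Replicate 2 was the lowest array by this probe, and the fold change was −1.56 ± 0.37 (limma adjusted p = 0.19). By the second probe, which differed by −2.02, replicate 2 was the highest Wnt4hi array, at 9.37 against 7.58 and 8.71. *Col6a1* and *Col6a2*, the partner chains with 1 probe each, were high on replicate 2, at 12.18 and 13.70. Their fold changes of −1.05 and −0.97 did not pass, and without that array they were −1.64 and −1.86 and passed (limma adjusted p = 0.063 and 0.056). The other 9 genes of the class lay between −0.29 and 0.66, and 0 of them passed the unadjusted threshold. In 2 of them, *Col26a1* (0.27) and *Col28a1* (0.66), the Wnt4hi arrays lay above the Wnt4low arrays, but their second probes differed by −1.01 and −0.58. Those second probes were dim, well above background on 1 and 0 Wnt4hi arrays and on 3 and 1 Wnt4low arrays. Without replicate 2, *Col28a1* was at 0.88 and passed (limma adjusted p = 0.45).

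Fibril-associated collagens had a median of 0.10 over 9 genes, and of −0.11 when all probes of a gene were averaged. *Col12a1*, a collagen that coats type I fibrils in tissue under tension, was at 11.10, 10.17 and 9.99 in Wnt4hi and at 12.26, 11.9999 and 12.35 in Wnt4low. The arrays did not overlap, and the fold change was −1.78 ± 0.31 (limma adjusted p = 0.094). *Col16a1*, of the same family, differed by −1.56 ± 0.52 (limma adjusted p = 0.35) with the probe that stood for it and by −0.21 with the other. The other 7 fold changes of the class ran from −0.12 to 0.73. *Col19a1*, a rare collagen of embryonic muscle and nerve, was the other gene higher in Wnt4hi, with 7.51, 8.10 and 7.93 in Wnt4hi and 7.05, 7.05 and 7.25 in Wnt4low. It was well above background on 2 Wnt4hi arrays and on 0 Wnt4low arrays. Its mean was higher by a bound of 1.37-fold by this probe (limma adjusted p = 0.22). Its second probe, not well above background on any array, differed by −0.06.

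Among the 4 transmembrane collagens the values ran apart. *Col13a1*, a collagen of cell-matrix contacts, had the largest fold change of the 72 genes. It was at 7.38, 8.39 and 6.19 in Wnt4hi and at 12.39, 11.07 and 12.07 in Wnt4low. The gap between the populations was wide, but the probe was well above background on only 1 Wnt4hi array. The fold change was −4.52 ± 0.62 (limma adjusted p = 0.0575), and its second probe, well above background on all 6 arrays, differed by −1.32. *Col25a1*, a collagen of neurons, differed by −0.72 ± 0.29 (limma adjusted p = 0.46), by −0.83 without replicate 2, which just missed the unadjusted threshold, and by −0.44 without Wnt4low replicate 3. *Col17a1*, of the skin's hemidesmosomes, and *Col23a1* differed by 0.14 and 0.12 and did not pass.

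Among elastic fibre proteins 8 of 9 genes had negative fold changes, with a median of −0.93, and 4 passed the unadjusted threshold. *Eln*, which encodes elastin, was at 11.20, 10.16 and 10.78 in Wnt4hi and at 12.13, 12.01 and 12.97 in Wnt4low. *Fbn1*, which encodes the microfibril protein fibrillin 1, was at 11.22, 9.98 and 10.43 in Wnt4hi and at 12.09, 12.11 and 11.76 in Wnt4low. The populations of both genes were apart, with replicate 2 the highest Wnt4hi array. The fold changes were −1.66 ± 0.36 for *Eln* and −1.44 ± 0.33 for *Fbn1*, with limma adjusted p of 0.16 and 0.17. *Mfap2* (−0.93) and *Fbn2* (−0.74), further microfibril components, also passed, and *Fbln2* (−1.15), *Fbln5* (−0.95), *Fbln1* (−0.65) and *Emilin1* (−0.64) did not. Without replicate 2, *Fbln2* (−1.78) and *Fbln5* (−1.51) passed as well (limma adjusted p = 0.31 and 0.40). *Mfap5*, a microfibril protein given here because its values were seen, was at 11.02 on Wnt4hi replicate 2, at 8.95 and 8.17 on the other Wnt4hi arrays and at 8.97 to 9.48 in Wnt4low. Its fold change of 0.14 turned to −0.67 without replicate 2 and passed the threshold with neither.

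Of the lysyl oxidases, *Loxl1* was at 9.33, 8.29 and 8.18 in Wnt4hi and at 9.44, 9.47 and 9.63 in Wnt4low. The groups did not overlap, but replicate 2 was only just under the Wnt4low arrays. *Loxl1* differed by −0.91 ± 0.32 (limma adjusted p = 0.38), and by −1.28 without that array. *Lox* (−0.41) and *Loxl2* (−0.36) did not pass over 6 arrays and gave −1.27 and −0.82 without it, past the unadjusted threshold (limma adjusted p = 0.13 and 0.45). Their signs turned in other fits, to 0.12 for *Lox* without Wnt4hi replicate 3 and to 0.0079 for *Loxl2* without Wnt4hi replicate 4. The small leucine-rich proteoglycans, which sit on collagen fibrils and set their spacing, were led by *Bgn* (biglycan). *Bgn* was at 11.28, 10.19 and 10.61 in Wnt4hi and at 12.93, 12.72 and 12.35 in Wnt4low. No Wnt4hi array came within 1 log2 unit of Wnt4low, and the fold change was −1.97 ± 0.31 (limma adjusted p = 0.075). *Dcn* (decorin) passed with −1.18 ± 0.47 (limma adjusted p = 0.46), and *Lum* (lumican), with −1.12 ± 0.62, did not. Without replicate 2 both passed, *Dcn* at −1.72 and *Lum* at −1.80 (limma adjusted p = 0.068 and 0.16).

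Fibronectin, versican and the matricellular proteins had a median of −1.79 over 9 genes, below that of the basement membrane (−1.58) over all probes, but above it when dim probes were left out (−2.29 for the basement membrane) or in the authors' table. All 9 had negative fold changes and 7 passed the unadjusted threshold. *Mgp*, which encodes matrix Gla protein, an inhibitor of calcification in vessels and cartilage, was at 9.04, 10.92 and 9.98 in Wnt4hi and at 12.11, 13.24 and 12.01 in Wnt4low. Here replicate 2 was the lowest array, and the fold change was −2.47 ± 0.55 (limma adjusted p = 0.16). *Sparc*, which encodes a collagen-binding protein also called osteonectin, was at 13.46, 11.76 and 12.55 in Wnt4hi and at 14.34, 14.25 and 14.18 in Wnt4low. The Wnt4low arrays were close together and all above the others, and the fold change was −1.67 ± 0.41 (limma adjusted p = 0.20), or −2.56 with the second probe. *Thbs1* and *Thbs2*, which encode thrombospondins known to restrain vessel growth, differed by −2.09 ± 0.36 and −2.03 ± 0.33. *Vcan*, the gene of the space-filling proteoglycan versican, differed by −1.79 ± 0.25 (limma adjusted p = 0.062), and *Sparcl1*, a relative of *Sparc* found in vessels, by −1.82 ± 0.51.

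*Tnc*, which encodes tenascin C of growing and healing tissue, was at 9.81, 8.13 and 8.78 in Wnt4hi and at 9.81, 10.12 and 11.03 in Wnt4low. Replicate 2 and Wnt4low replicate 1 were almost level, and the fold change was −1.42 ± 0.50 (limma adjusted p = 0.39), or −1.87 without replicate 2. *Fn1*, the gene of fibronectin, was at 12.37, 10.45 and 9.77 in Wnt4hi and at 12.38, 11.62 and 12.11 in Wnt4low. Replicate 2 lay inside the Wnt4low range, and *Fn1* did not pass (−1.17 ± 0.66, limma adjusted p = 0.64). Without that array its fold change was −1.92 (limma adjusted p = 0.11), and its other probes differed by −1.81 and −0.59 over 6 arrays, with replicate 2 below every Wnt4low array on both. *Postn*, the gene of periostin, a fibroblast product, did not pass either (−0.96 ± 0.60, limma adjusted p = 0.69). Without replicate 2 it differed by −1.56 and passed (limma adjusted p = 0.28), and its other probes differed by −1.76 and −1.604 over 6 arrays, with replicate 2 below every Wnt4low array on both.

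**Figure D4:**
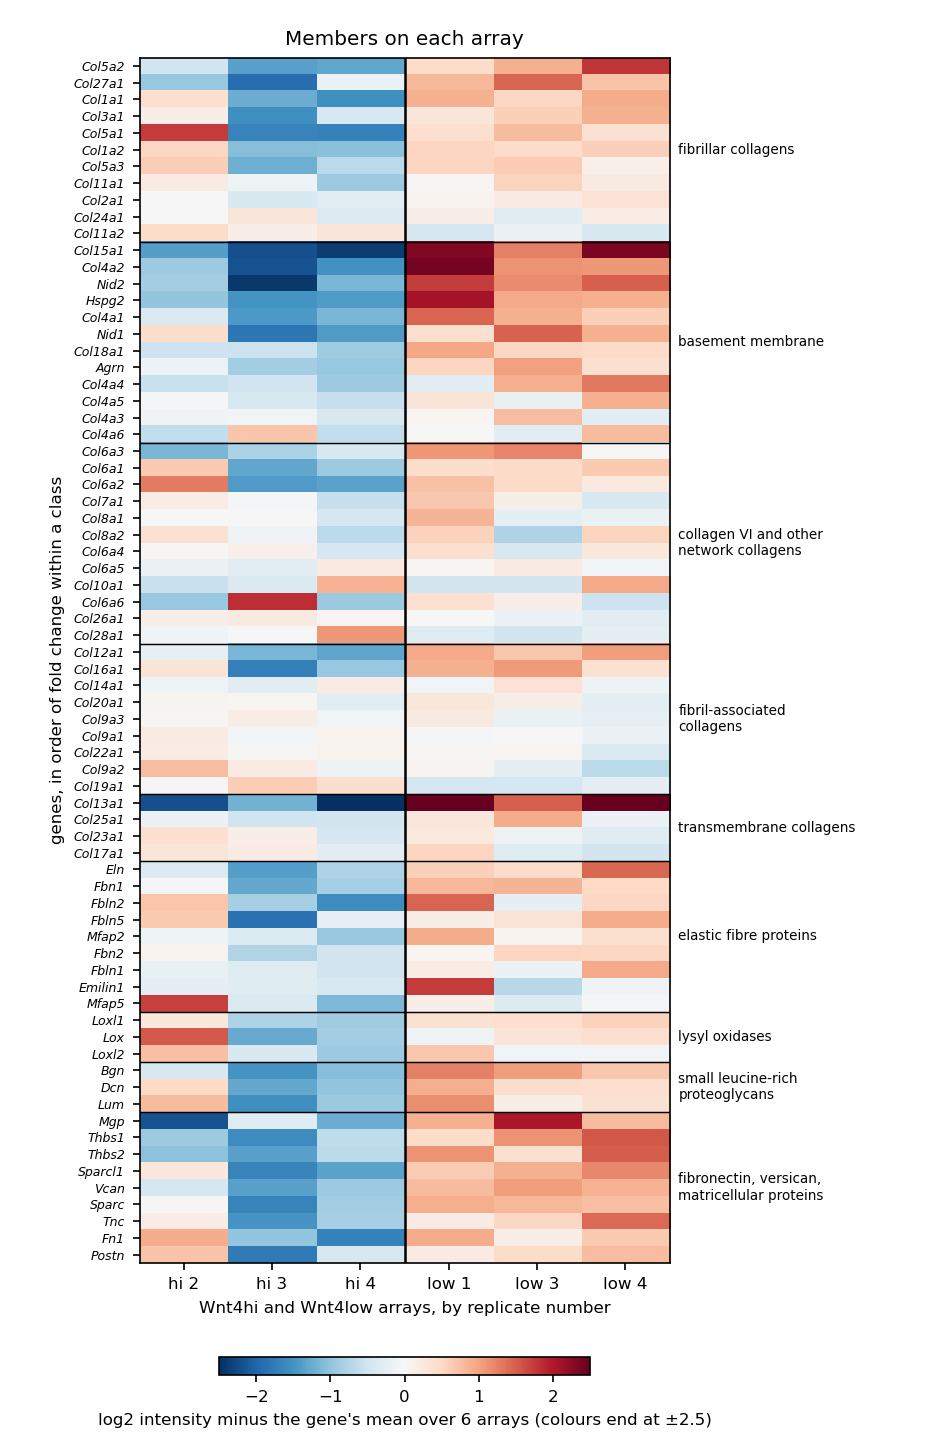
Each of the 72 genes (rows, by class and in order of fold change) on each of the 6 arrays (columns), as log2 intensity minus the gene's mean over the arrays; red is above and blue below that mean. Wnt4hi replicates 3 and 4 are blue in most classes, and replicate 2 is red for *Col5a1*, *Col6a2*, *Mfap5* and *Lox* while blue for most basement membrane genes.

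The 72 genes were represented by 113 probes, and 37 genes had more than 1. In 27 of the 37, every other probe had the same sign as the probe that stood for the gene. Of the 20 genes past the unadjusted threshold with more than 1 probe, 19 had other probes of the same sign, and *Col19a1* was the exception.

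Genes that make and read collagen were given by lists. Of 19 genes of collagen folding and modification, 6 were lower in Wnt4hi and 1 was higher at the unadjusted threshold, with a median of −0.56. *Fkbp10*, a chaperone for lysine cross-linking, differed by −1.599 ± 0.41, and *Serpinh1*, the collagen chaperone HSP47, by −1.40 ± 0.32 (limma adjusted p = 0.22 and 0.17). *Crtap*, a subunit of the proline 3-hydroxylation complex, differed by −1.45 ± 0.63 and missed the threshold. The gene that was higher was *Mia3* (0.73), which helps large cargo leave the endoplasmic reticulum, named after its value was seen. Of 11 genes of procollagen processing, 2 were lower and 2 higher at that threshold. By sign alone 6 were lower and 5 higher, with a median of −0.07. *Pcolce2*, an enhancer of procollagen C-proteinase, was higher by 1.89 ± 0.32 (limma adjusted p = 0.090). *Loxl3*, another lysyl oxidase, differed by −1.27 ± 0.36, and *Pcolce*, the relative of *Pcolce2*, by −1.19 ± 0.58, which missed the threshold. Named after their values were seen, *Bmp1* (0.45), a C-proteinase, and *Adamts2* (−0.63), an N-proteinase, were the other genes that passed. The other probes of *Bmp1* ran the opposite way, at −0.20 and −0.16, and that of *Adamts2* differed by −0.19.

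Of 12 receptors for collagen and fibronectin, 3 were lower and 1 was higher at the unadjusted threshold. By sign alone 10 were lower and 2 higher, with a median of −0.43. *Ddr2*, the receptor tyrosine kinase for fibrillar collagen in mesenchymal cells, was lower by the fold change −3.11 ± 0.44 (limma adjusted p = 0.062). *Itga1*, a collagen-binding integrin chain, differed by −1.32 ± 0.20 (limma adjusted p = 0.070), and *Itga5*, of the fibronectin receptor, by −1.28 ± 0.74 without passing. The others that passed, named after their values were seen, were *Itgb1* (−0.46), the shared integrin β chain, and *Ddr1* (0.78), the collagen receptor of epithelial cells.

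Markers of other cell types were compared by list. All 10 endothelial markers were lower in Wnt4hi at the unadjusted threshold, with a median of −3.63, and 7 of them, *Cdh5*, *Emcn*, *Esam*, *Kdr*, *Pecam1*, *Plvap* and *Tek*, passed after adjustment. The mean log2 intensity of the list ran from 8.20 to 8.70 on the Wnt4hi arrays and from 11.5 to 12.4 on the Wnt4low arrays. *Tek* and *Tie1*, receptors that define endothelium, were not well above background on any Wnt4hi array. All 10 fibroblast or stellate markers had negative fold changes, with a median of −1.38, and 6 passed, among them *Foxf1* (−2.61, limma adjusted p = 0.026), *Prrx1* (−2.15) and *Pdgfrb* (−1.87). The mean of that list ran from 8.82 to 9.64 in Wnt4hi and from 10.5 to 10.6 in Wnt4low, and 7 of the 10 were brighter than background on every array. Of 10 pericyte or smooth muscle markers, 9 had negative fold changes and 7 passed. The median was −1.48, and means were 10.9 to 11.5 against 12.1 to 12.4.

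At the unadjusted threshold, 5 of 8 leukocyte, 2 of 8 Schwann cell, 1 of 6 mesothelial and 2 of 9 acinar markers were lower. Of 7 duct markers, 1 was lower and 1 higher. By sign alone, fold changes were negative for 7 leukocyte, 7 Schwann cell, 5 mesothelial, 8 acinar and 3 duct markers. The medians were −0.89, −0.53, −0.90, −0.91 and 0.11. Beta cell markers were higher at that threshold in 7 of 10 and alpha cell markers in 3 of 6. By sign alone 9 beta cell and 6 alpha cell markers were higher, with medians of 1.26 and 2.03. On Wnt4hi replicate 2 the median deviation of the fibroblast list was −0.20, against −1.10 and −0.58 on replicates 3 and 4, and that of the endothelial list was −1.50, against −1.90 and −1.84. For the fibrillar collagens the same values were 0.21, −1.23 and −0.68, and for the basement membrane −0.54, −1.15 and −1.05. The part of these cell types in the matrix differences was not tested.

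**Figure D5:**
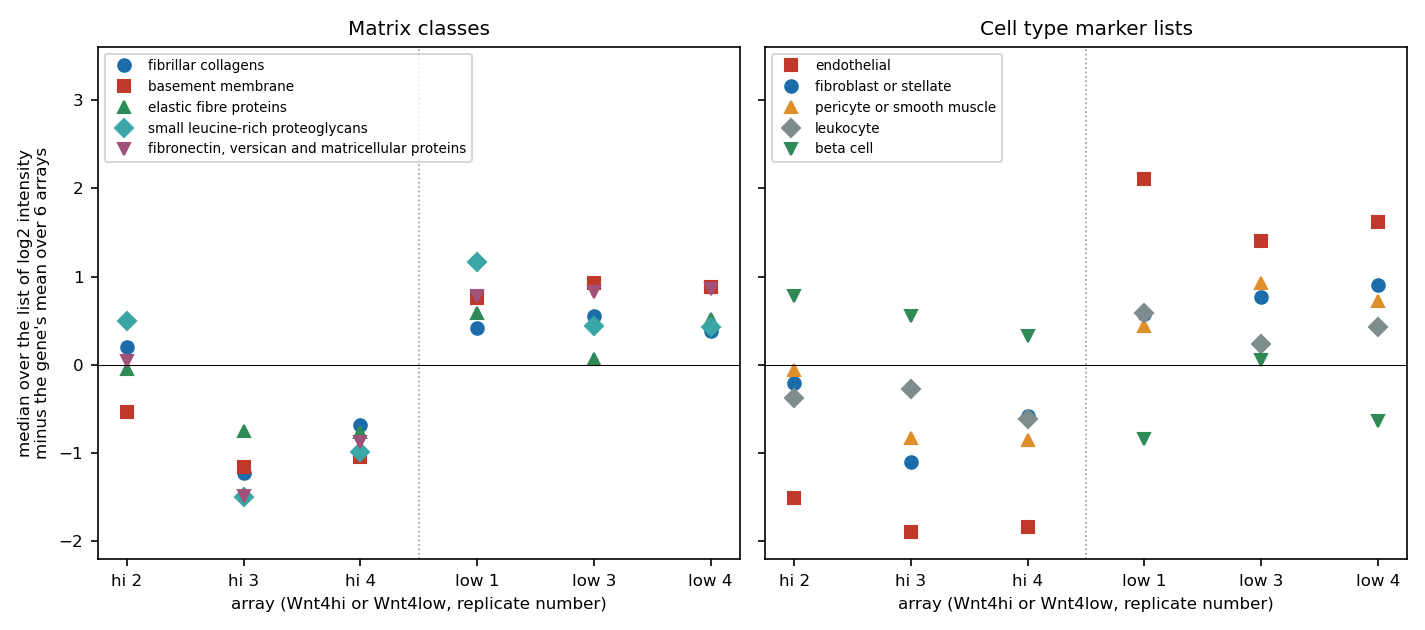
Median over each list of log2 intensity minus the gene's mean over 6 arrays, for 5 matrix classes (left) and 5 cell type marker lists (right), with 1 point per array. On Wnt4hi replicate 2 the fibrillar collagens stand at 0.21 and the small leucine-rich proteoglycans at 0.49, near the Wnt4low arrays, while the basement membrane stands at −0.54 and the endothelial markers at −1.50.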

How the data were processed

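Per array, the authors deposited unnormalized scanner output (median spot and background intensity) and a processed intensity, made with Agilent Feature Extraction (9.1 per the labels, 12.0.1.1 per the file headers). Normalized log2 values were deposited by the authors in a further table, with 0 columns of other samples. Following the study's methods, median intensities (mean or median is not given in the sources used here) were corrected with normexp (offset 50), and log2 values were quantile-normalized and compared with limma 3.58.1 (R 4.3.3) by lmFit and eBayes without covariates. Outlier spots were left out here (50 to 141 per array, plus at most 3 that were not uniform). Spots of a probe were averaged, giving 56605 probes. RefSeq symbols of GRCm38.p6 were used for names, and matched 32994 of 35886 probes with RefSeq names. Spots were in the median 10.8 to 15.6 times as bright as background, and precision is set by having 3 arrays per population. For a gene dim on every array of a population, only a bound is given, against the weakest probe called above background per array. Such a bound compares means and carries no error.

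Members, classes, gene lists and tests were chosen with earlier results of these data known. Values on each array are given for members past the adjusted threshold, the largest unadjusted change of each class and direction among those bright on each array of the population with the higher level, members higher in Wnt4hi, and *Col1a1*, *Col1a2*, *Col3a1*, *Col4a1*, *Col4a2*, *Col18a1*, *Fn1*, *Hspg2*, *Nid1*, *Sparc*, *Fbn1*, *Eln*, *Tnc* and *Agrn*; of other lists, adjusted genes and up to 3 others with the largest changes were named. P-values measure the spread between pools. The calculation was tested on simulated data. Alternatives changed the background correction, normalization, filter, outliers, choice of probe, variance model, values (the authors' table), replicate block and arrays used.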

Additional observations from a re-analysis of the deposited data

How the results depend on the processing

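Results were recomputed under 20 alternatives, of which the authors' table without its Wnt4hi column 2 was added after seeing the data. The count of genes lower at the unadjusted threshold (34) was 22 with a plain t-test, 21 to 45 when 1 array was left out, and 32 to 43 otherwise. Over all features, calls in either direction numbered 4063 with the t-test and 4080 to 5028 when 1 array was left out. They numbered 4086 to 5148 otherwise, against 2522 lower and 2306 higher in the main fit. The filter and the authors' table held fewer features, 31996 and 36689. The count after adjustment (1) was 2 with an offset of 16, the processed intensity, cyclic loess or trend and robust estimation, 4 with median centring or the mean of all probes, 12 with features well above background in 1 population, 11 with the authors' table, 15 without its column 2, and 0 with the t-test or when any array was left out. The share called over all features in either direction moved too, from 0.441% to 1.59% with the filter, which left 64 of the 72 genes, and to 1.11% and 0.861% with the authors' table. The count of higher genes (2) was 1 with features well above background, the mean of all probes and the authors' table with or without column 2, and 3 with the t-test and without Wnt4hi replicate 2 or 4. Left-out arrays gave medians from −1.37 to −0.66 for all 72 genes, −1.56 to −0.62 for fibrillar collagens, −1.92 to −1.39 for the basement membrane and −1.27 to −0.073 for lysyl oxidases, −0.35 to −0.022 for collagen VI and network collagens, 0.03 to 0.16 for fibril-associated and −0.51 to −0.18 for transmembrane collagens, −1.13 to −0.66 for elastic fibre proteins, −1.80 to −0.84 for small leucine-rich proteoglycans and −2.02 to −1.44 for matricellular proteins. The basement membrane median (−1.58) was −1.89 with the processed intensity, −2.29 with features well above background, −1.86 with the authors' table and −2.03 without its column 2. The lysyl oxidase median (−0.41) was −1.18 and −1.28 with that table, and the fibril-associated median (0.10) was −0.11 with the mean of all probes. The cause of these shifts was not tested. Signs turned for genes that had not passed: *Col26a1* with the mean of all probes (−0.37), *Lox* without Wnt4hi replicate 3 (0.12, against −1.27 without replicate 2), *Loxl2* without Wnt4hi replicate 4 (0.0079, against −0.82 without replicate 2), and *Mfap5* with the authors' table (−0.60), without its column 2 (−0.68) and without Wnt4hi replicate 2 (−0.67, against 0.75 without replicate 4).

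With the replicate number as a fixed replicate block, 43 genes were lower at the unadjusted threshold and 0 after adjustment, as for all 45616 features, and with a random replicate block 34 and 4. Under the fixed block the medians were −1.34 for all genes, −1.58 for fibrillar collagens, −1.92 for the basement membrane and −1.32 for lysyl oxidases, and *Mfap5* was at −0.55. Only replicates 3 and 4 occur in both populations, so this fit rests on 4 arrays, and deviations of same-numbered arrays from the mean of their own population correlated at −0.03 and 0.16 across probes (0.18 for Wnt4hi replicate 2 with Wnt4low replicate 1, which share no number), so the numbers were not taken as pairs. The authors' table held 61 of the 72 genes. Having 3 arrays per population and probes near background limit what can be seen for *Col4a3* to *Col4a6*, *Col8a1*, *Col10a1* and *Col19a1*.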
